A study of Homo sapiens with 12 samples.

Results

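The erastin response of WWTR1-silenced cells was measured on 6 of the 12 arrays of the series, taken by their sample titles: 3 arrays of cells with siRNA against WWTR1 and DMSO vehicle, and 3 of cells with the same siRNA and erastin. All 6 are RNA from RCC4, a long-established human line of clear cell kidney cancer in which the VHL tumour suppressor is lost, grown with serum. Silencing lasted 2 days and was followed by 7 hours of DMSO or of 1 µM erastin, and the submitters call the replicates biological triplicates. The other 6 arrays carry RNA of RCC4 cells with a non-targeting siRNA (siNT), again 3 with DMSO and 3 with erastin under the same times and dose, and serve below as the control response. The knock-down is transient, in 1 cell line, and no second siRNA sequence is named in the labels. WWTR1 encodes TAZ, so the silenced groups are called siTAZ.

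TAZ is a transcriptional coactivator that the Hippo pathway restrains in dense cultures, and it acts through TEAD factors. Erastin inhibits system xc-, which imports cystine in exchange for glutamate through its transporting chain SLC7A11. It so starves cells of cysteine and of glutathione, and membrane lipids can then peroxidise in an iron-dependent form of cell death called ferroptosis. Shortage of an amino acid also activates the kinase GCN2, which phosphorylates the initiation factor eIF2. Most translation then slows while ATF4 is translated, and ATF4 binds C/EBP-ATF response elements (CAREs) in genes for amino acid synthesis, transport and tRNA charging. This programme is the integrated stress response.

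The values are log2 signals, and a change is the mean log2 signal under erastin minus that under DMSO, ± the standard error of a limma fit with n = 3 arrays per group. Rose and fell are used only of genes whose limma p, adjusted by Benjamini-Hochberg over all 11963 genes, was under 0.05. The p-values measure the spread between these arrays.

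CAREs could be looked for in the promoters of the genes that rose, because RefSeq start sites were at hand (GRCh38.p14, 250 bases before to 50 after each start). The motif TGATGNAA or its reverse complement TTNCATCA was searched on both strands. Among the 55 risen genes, 41 had a promoter entry, and 15 of these (36.6%) held the motif in at least 1 of their promoters, against 4.46% of all 27305 genes with an entry. Counted by promoter, the share was 21.7% of 69 against 3.62% of 35116. Genes with several start sites count once in the first share. The background holds every gene with an entry, including genes not measured on these arrays. Risen genes also had more promoters each, 69 for 41 genes against 35116 for 27305, which can raise the first share. None of the 9 fallen genes with an entry held it (0 of 9 promoters). The antioxidant response element TGACNNNGC was in 24.6% of the promoters of risen genes and 13.4% of all promoters, and the E-box CACGTG in 10.1% and 7.26%. Counted by gene, these shares were 34.15% and 16.06% for the antioxidant element and 14.63% and 8.775% for the E-box. A match is a run of letters, and binding was not measured.

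The stretches below show the CARE letters, in capitals, in the 5 genes with the largest rises among the fixed lists and named rises whose match lies wholly before the start site. All are printed 5′ to 3′ on the gene's own strand. They are the glutathione-degrading enzyme gene CHAC1 (chr15:40953251-40953280, + strand), the asparagine synthetase gene ASNS (chr7:97872458-97872487, - strand), the fucosyltransferase gene FUT1 (chr19:48755459-48755488, - strand), and the transcription factor genes CEBPG (chr19:33374060-33374089, + strand) and ATF3 (chr1:212565205-212565234, + strand).
CHAC1: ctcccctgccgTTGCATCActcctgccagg
ASNS: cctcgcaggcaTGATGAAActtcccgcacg
FUT1: ctcctcctcccTGATGCAAtcctggtgttt
CEBPG: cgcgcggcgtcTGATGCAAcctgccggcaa
ATF3: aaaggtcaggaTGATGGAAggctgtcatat
The match of CHAC1 is the reverse form and begins at base -209 from its start site. Those of ASNS, FUT1, CEBPG and ATF3 begin at bases -68, -119, -42 and -191 from theirs. All 5 genes rose under erastin, by 1.36, 1.34, 0.72, 0.57 and 0.49 in that order.

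Erastin changed few transcripts in silenced cells, more of them upward than downward. Of 11963 genes, 55 rose (0.46%) and 12 fell (0.1%), 0.56% in either direction. The 9 changes of at least 2-fold were all rises, and 26 rises but 0 falls reached 0.5 on the log2 scale. In each of the 67 called genes the 3 erastin arrays lay wholly above or wholly below the 3 DMSO arrays, as they did in 20.7% of all genes. Leaving out any 1 of the 6 arrays reduced the calls to between 30 and 41. Of the 55 rises 28 kept their call without each array in turn, and of the 12 falls 0 did. Rises described below without a remark on single arrays are among the 28.

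**Figure D1:**
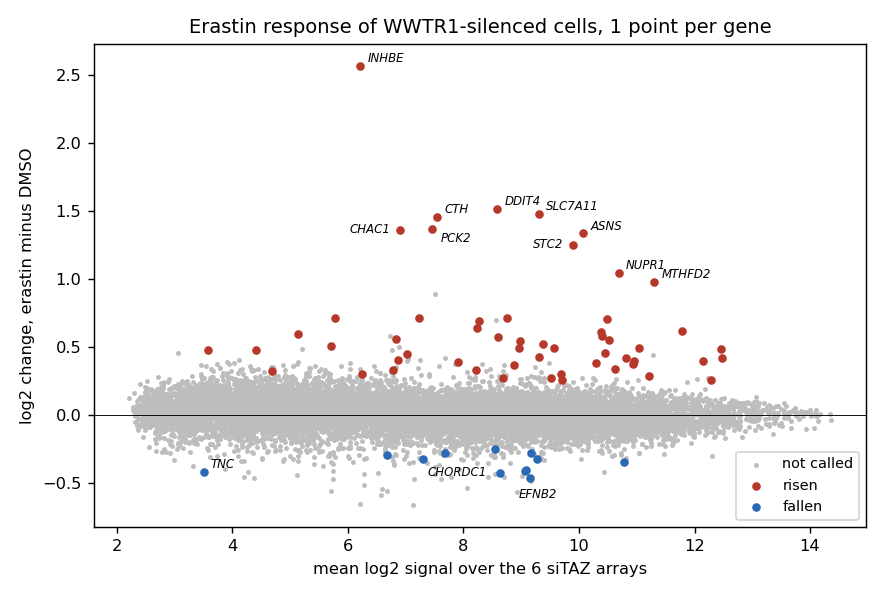
Log2 change under erastin (y axis) against mean log2 signal over the 6 siTAZ arrays (x axis), 1 point per gene. Red points are the 55 genes that rose, blue the 12 that fell and grey the genes not called; INHBE, at 2.57, lies above all others.

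The siTAZ arrays were alike in most quality measures, with the exceptions given below. WWTR1 itself had log2 signals of 9.46, 9.31 and 9.26 on the siTAZ DMSO arrays and 9.10, 9.09 and 9.25 on the siTAZ erastin arrays, against means of 12.29 and 12.27 in the matching siNT groups. Its change under erastin, -0.20 ± 0.07, did not pass limma's test (adjusted p = 0.375). Renal epithelial and clear cell carcinoma markers averaged 10.5 to 10.6 on every siTAZ array, and leukocyte, endothelial, erythroid and fibroblast markers 4.46 to 5.00. The 11 fibroblast and pericyte markers were dim in both groups, at 4.74 to 4.81 under DMSO and 4.86 to 4.94 under erastin. The actin control signal at the 3′ end exceeded that at the 5′ end, a sign of RNA quality, by 2.65 ± 0.04 (SD, n = 3) under DMSO and 3.25 ± 0.33 under erastin, without overlap and highest, at 3.63, on erastin array 2. The same difference for GAPDH was 0.20 ± 0.07 and 0.20 ± 0.06. In siNT cells the actin difference was 2.68 ± 0.28 under DMSO and 2.26 ± 0.69 under erastin, lowest, at 1.49, on siNT erastin array 3. Spiked-in control RNAs averaged 7.69 on siTAZ erastin array 2 and 8.22 to 8.65 on the other siTAZ arrays. With the actin difference as a covariate limma called 45 genes, 44 risen and 1 fallen, and 37 of them were among the 67.

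The largest rise was that of INHBE, which encodes the activin βE subunit, a secreted factor of the liver that ATF4 is known to induce. Its log2 signals were 4.97, 4.97 and 4.85 with DMSO and 7.43, 7.43 and 7.63 with erastin. The rise of 2.57 ± 0.10, or 5.92-fold, passed limma's test with an adjusted p of 6.12e-08. The DMSO signals lie in the range of leukocyte, endothelial and erythroid markers (median 4.59, 90th percentile 5.68), so the true rise may be larger than the one measured.

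The target of the drug rose as well. SLC7A11 is the chain of the antiporter that erastin blocks. Signals of 8.54, 8.59 and 8.58 with DMSO became 10.09, 10.01 and 10.05 with erastin. The change was 1.48 ± 0.06, or 2.79-fold (limma adjusted p = 7.2e-08). A second probe set of the gene gave 1.46, and another, dim one 0.36. Its partner chain SLC3A2, which carries the antiporter to the membrane, went from 9.19, 9.14 and 9.22 to 9.60, 9.36 and 9.55. Those groups did not overlap, but the change of 0.32 ± 0.07 did not pass (adjusted p = 0.0944 in limma). It stayed uncalled in 14 of 18 alternative settings.

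Enzymes that make or break cysteine and glutathione moved in a narrow set. CTH, which releases cysteine from cystathionine, had signals of 6.75, 6.94 and 6.76 under DMSO and 8.33, 8.20 and 8.28 under erastin, a rise of 1.46 ± 0.10. CHAC1, which cleaves glutathione in the cytosol, rose by 1.36 ± 0.11, from 5.99, 6.47 and 6.21 to 7.57, 7.70 and 7.48. Neither gene's groups overlapped, and the limma adjusted p were 6.19e-06 and 2.86e-05. CBS, the enzyme before CTH in that pathway, rose by 0.60 from signals of 4.76 to 4.92, dim enough to lie in the range of the markers of other cell types, and lost its call without DMSO array 1 or 2 or erastin array 1 or 3 (limma adjusted p up to 0.0613). These were the 3 members of 23 measured genes of cysteine and glutathione metabolism that rose, and 0 fell. The median change of the list was 0.05, against 0.01 over all genes. The glutathione synthesis genes GCLC and GCLM had changes of -0.09 and 0.02, and the thioredoxin reductase gene TXNRD1 0.11 ± 0.05, none past the test.

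Transcription factors and regulators of the integrated stress response were the list with the highest share of rises, 8 of 13 measured, with 0 falls. The list median was 0.49, and the count was 8 without each of the 6 arrays in turn. NUPR1, a small stress-induced chromatin protein, rose by 1.05 ± 0.10, from 10.19, 10.17 and 10.14 to 11.15, 11.24 and 11.24. TRIB3, a pseudokinase that ATF4 induces and that restrains ATF4, went from 10.13, 10.17 and 10.09 to 10.83, 10.84 and 10.84, a rise of 0.71 ± 0.05. In both the erastin arrays lay close together and well above the DMSO arrays.

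DDIT3, which encodes the factor CHOP, rose by 0.64 ± 0.09, and EIF4EBP1, the translation repressor 4E-BP1, by 0.61 ± 0.08. Of the C/EBP family CEBPB rose by 0.58 ± 0.06 and CEBPG, a dimer partner of ATF4, by 0.57 ± 0.06. ATF3 rose by 0.49 ± 0.06. The transcript of ATF4 itself, whose protein output is set largely at translation, went from 12.31, 12.27 and 12.23 to 12.73, 12.60 and 12.74, a rise of 0.42 ± 0.05 (limma adjusted p = 0.00262). Not called were XBP1 at 0.35, PPP1R15A, the eIF2 phosphatase subunit GADD34, at 0.31, ATF5 at 0.07, EIF2S1 at 0.01 and EIF2AK3, the kinase PERK, at -0.17. CEBPG, and SARS1 and TARS1 below, are given as members of counted lists and were chosen after their values were seen.

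**Figure D2:**
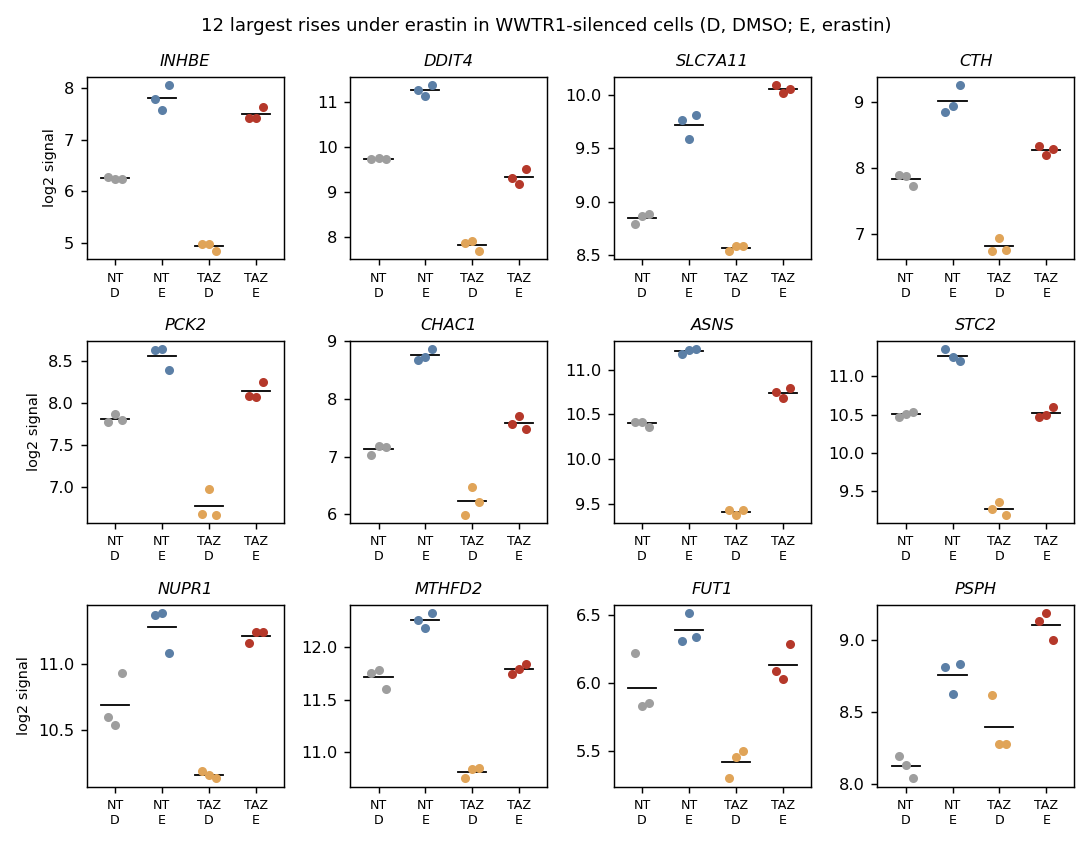
Log2 signal (y axis) of the 12 genes with the largest rises, in panels with their own scale; points are single arrays and bars are means of 3, for siNT (NT) and siTAZ (TAZ) cells with DMSO (D) or erastin (E). In each panel the 3 siTAZ erastin points lie above the 3 siTAZ DMSO points; INHBE starts from about 5 and SLC7A11 ends above the siNT erastin points.

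Enzymes that make serine, asparagine, proline and folate-bound carbon followed, with 5 of 13 risen and 0 fallen, and a list median of 0.24. ASNS had the smallest adjusted p of all genes. Its signals of 9.43, 9.38 and 9.42 under DMSO and 10.75, 10.69 and 10.80 under erastin gave a rise of 1.34 ± 0.05, or 2.52-fold, with a limma adjusted p of 5.71e-08. PCK2, the mitochondrial phosphoenolpyruvate carboxykinase, rose by 1.36 ± 0.09, from 6.67, 6.97 and 6.67 to 8.09, 8.07 and 8.25.

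MTHFD2, a mitochondrial folate enzyme, rose by 0.98 ± 0.06, from 10.75, 10.84 and 10.85 to 11.75, 11.79 and 11.84. SHMT2, which hands a carbon from serine to folate in mitochondria, rose by 0.40 ± 0.06, a call lost without DMSO array 1 or erastin array 3 (limma adjusted p up to 0.0638). In the serine branch the last enzyme PSPH rose by 0.71 ± 0.10, while the middle enzyme PSAT1, at 0.50 ± 0.18 (limma adjusted p = 0.379), and the first, PHGDH, at 0.13 ± 0.09, did not pass. The PSAT1 groups did not overlap, at 6.52 to 6.71 and 7.01 to 7.30.

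Amino acid transporter genes rose in 4 of 17 cases, with 0 falls and a median of 0.22. Besides SLC7A11 these were SLC1A4, a carrier of serine, alanine and cysteine, at 0.69 ± 0.06, SLC38A2, a sodium-coupled carrier of small neutral amino acids, at 0.55 ± 0.09, and SLC7A5, the leucine exchanger LAT1, at 0.37 ± 0.05. The call of SLC38A2 was lost without DMSO array 1 or 2 or erastin array 1 or 3 (limma adjusted p up to 0.0762). SLC1A5, the glutamine carrier, had a change of 0.38 and missed the threshold (adjusted p = 0.0543 in limma).

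Of the cytosolic aminoacyl-tRNA synthetases, which load amino acids onto tRNAs, 7 of 16 rose and 0 fell, with a median of 0.19. They were the synthetases for cysteine, CARS1, at 0.62 ± 0.05, tryptophan, WARS1, at 0.52 ± 0.05, glycine, GARS1, at 0.48 ± 0.05, tyrosine, YARS1, at 0.40 ± 0.05, alanine, AARS1, at 0.38 ± 0.06, serine, SARS1, at 0.34 ± 0.05, and threonine, TARS1, at 0.29 ± 0.05. CARS1 had signals of 11.47, 11.47 and 11.48 under DMSO and 12.07, 12.10 and 12.11 under erastin. The count fell to 4 without DMSO array 1, DMSO array 3 or erastin array 1, where AARS1, SARS1 and TARS1 were not called. The other 9 cytosolic synthetases had changes between -0.05, for KARS1, and 0.24, for EPRS1. Of 10 mitochondrial synthetases 0 were called, and their median was -0.02.

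These 5 lists together held 82 measured genes, of which 27 (32.9%) rose and 0 fell, against 0.46% of all genes. They made up 49.1% of all rises. The lists were written with earlier results of these data known, so the count is no independent evidence of a direction.

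**Figure D3:**
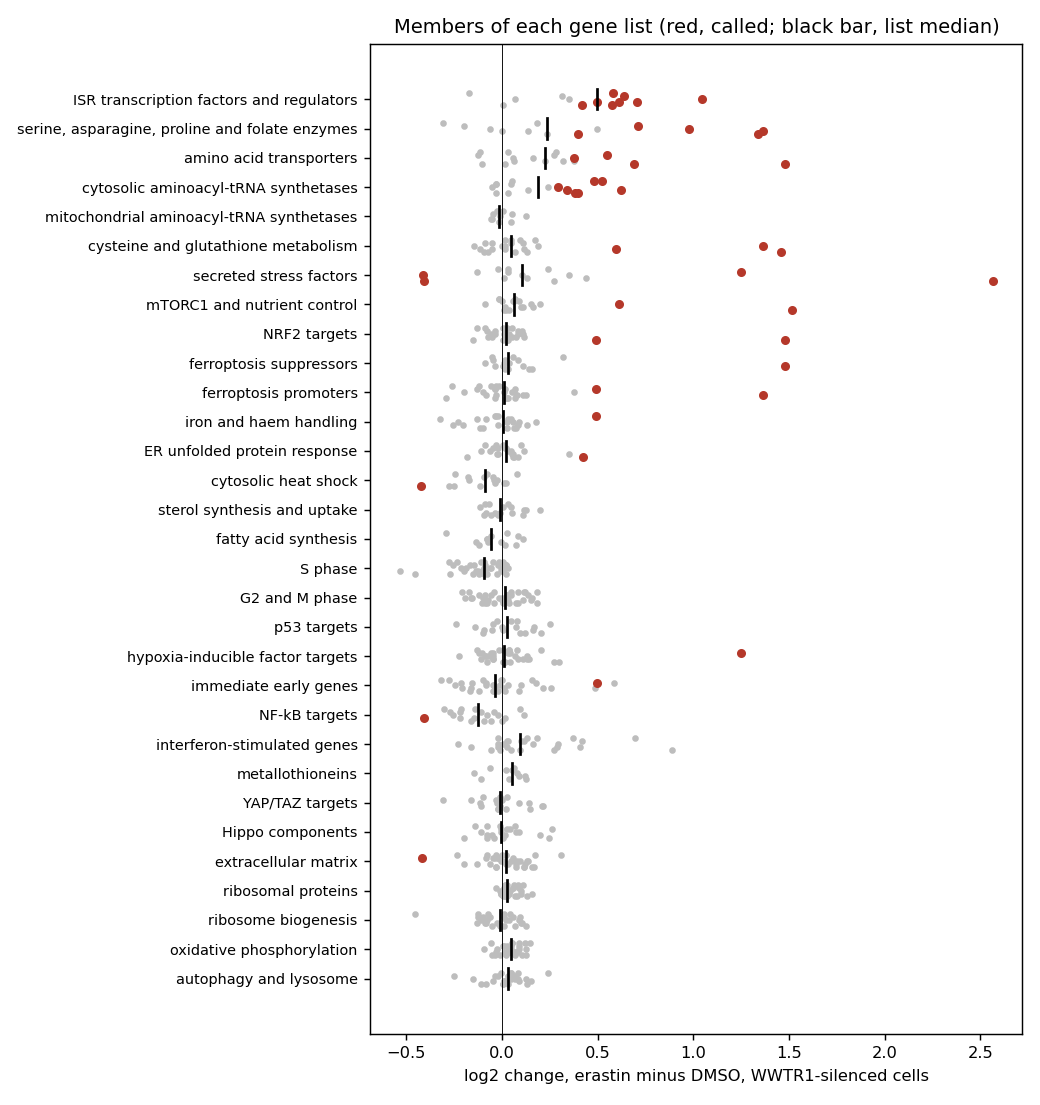
Log2 change under erastin in siTAZ cells (x axis) of every measured member of 31 gene lists (rows); red points passed the test, grey did not, and black bars are list medians. The ISR row (integrated stress response) has a median of 0.49, while most other rows centre near 0 with few or no red points.

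Nutrient signalling gave 2 rises among 19 genes of mTORC1 and nutrient control, against 0.46% of all genes. DDIT4, also called REDD1, an inhibitor of mTORC1, rose by 1.52 ± 0.09, or 2.86-fold, from 7.87, 7.91 and 7.70 to 9.32, 9.19 and 9.52. The other was EIF4EBP1. The remaining members, among them TSC1, TSC2, MTOR and the RRAG genes, lay between -0.09 and 0.20.

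Secreted stress factors moved in both directions, 2 up and 2 down among 15, against 0.46% risen and 0.1% fallen of all genes. The 2 falls, of HBEGF and CXCL8, lost their calls without single arrays, as described below. STC2, the glycoprotein stanniocalcin 2, rose with INHBE, by 1.25 ± 0.06, from 9.26, 9.35 and 9.19 to 10.47, 10.49 and 10.60. GDF15, the appetite-suppressing stress cytokine, had a change of 0.44 ± 0.11 with an adjusted p of 0.122 in limma, and VEGFA 0.27 ± 0.07 with 0.141. Of 18 alternative settings, GDF15 stayed uncalled in 13 and VEGFA in 16. The GDF15 groups did not overlap, and in control cells it rose by 0.69 (limma adjusted p = 0.0118). STC2 was also the only called gene among 35 targets of hypoxia-inducible factors, whose median was 0.01.

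Genes known for their part in ferroptosis were counted in a pair of lists, against 0.46% risen among all genes. Of 17 suppressors SLC7A11 rose and 0 fell, with a median of 0.03, and of 29 promoters CHAC1 and HMOX1 rose and 0 fell, with a median of 0.01. HMOX1, the haem oxygenase that frees iron from haem, went from 9.28, 9.35 and 9.34 to 9.84, 9.74 and 9.85, a rise of 0.49 ± 0.06. It was also the only called gene of 24 for iron and haem handling. Not called were GPX4, which reduces lipid peroxides, at 0.16 ± 0.07, GCH1, which makes tetrahydrobiopterin, at 0.04 ± 0.13, and the transferrin receptor gene TFRC at 0.06 ± 0.05.

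ACSL4, which activates polyunsaturated fatty acids, had overlapping signals of 8.92, 8.42 and 8.55 under DMSO and 8.36, 8.58 and 8.06 under erastin, a change of -0.30 ± 0.15 (limma adjusted p = 0.55). EMP1, a membrane protein, and NOX4, a superoxide-producing oxidase, had changes of 0.05 ± 0.13 and -0.09 ± 0.14, NOX4 at signals of 3.68 to 4.31. Of 28 targets of NRF2, the antioxidant transcription factor, SLC7A11 and HMOX1 rose, against 0.46% of all genes, and the median of the list was 0.02. NQO1 had a change of 0.07.

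The unfolded protein response of the endoplasmic reticulum gave 1 rise in 23 genes, against 0.46% of all genes. HERPUD1, which takes part in degradation of misfolded proteins, rose by 0.42 ± 0.05. The chaperone gene HSPA5 had a change of 0.06 ± 0.06, and the list median was 0.02. Of 19 YAP/TAZ targets and 21 Hippo components 0 were called, with medians of -0.01 and 0.00. CCN2 was at 0.21 ± 0.10 and YAP1, the paralogue of TAZ, at 0.01 ± 0.07.

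The falls were small, and each lost its call without 3 or more of the 6 arrays left out singly, with limma adjusted p of up to 0.249. EFNB2, the gene for the membrane ligand ephrin-B2, went from 9.39, 9.41 and 9.34 to 8.90, 8.90 and 8.94, a fall of -0.46 ± 0.08. CHORDC1, a co-chaperone of HSP90, fell by -0.42 ± 0.08, from 8.95, 8.78 and 8.82 to 8.41, 8.43 and 8.44. HBEGF, a growth factor that binds the EGF receptor, fell by -0.41 ± 0.06, from 9.34, 9.27 and 9.20 to 8.91, 8.89 and 8.78. The limma adjusted p were 0.0156, 0.0494 and 0.0132, and the arrays of each pair of groups stood apart.

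CXCL8, the neutrophil chemokine interleukin 8, had signals of 9.34, 9.31 and 9.24 and then 8.85, 8.93 and 8.88, a fall of -0.41 ± 0.07. A second CXCL8 probe set gave -0.88. TNFSF10, the death ligand TRAIL, fell by -0.34, AZIN1, the antizyme inhibitor that raises polyamine synthesis, by -0.32, and the formin gene FHOD1 by -0.32. The ERK phosphatase gene DUSP7 fell by -0.29, the urokinase receptor gene PLAUR by -0.28, TRIP10 by -0.28, and DSCC1, a subunit of a PCNA loader that aids sister chromatid cohesion, by -0.25. Another probe set of PLAUR gave -0.35 and a further one 0.05. Other probe sets of DUSP7 and DSCC1 gave 0.06, from a dim signal of 4.78, and 0.08, so these 3 falls are uncertain. They are the 3 exceptions among 25 called genes with several probe sets. In the other 22 all probe sets changed in 1 direction, judged by sign alone. The other probe sets of AZIN1 gave -0.28 and, from a dim signal of 5.20, -0.0006. Those of HBEGF gave -0.39 and, from a dim signal of 4.06, -0.01. Both falls lost their call with the mean of all probe sets of a gene, which includes the dim ones. TNC, the matrix protein tenascin C, also fell, but its signals of 3.21 to 3.85 lie under the averages of the markers of other cell types, and no size is given.

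**Figure D4:**
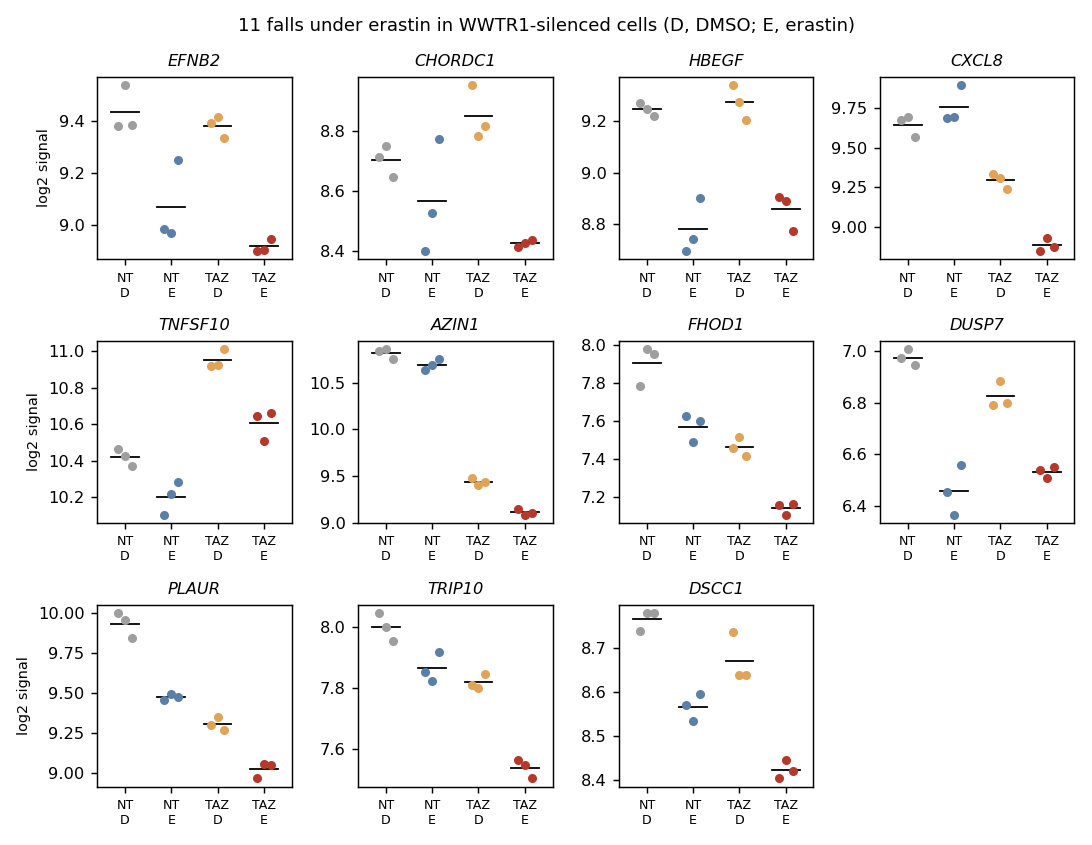
Log2 signal (y axis) of 11 of the 12 genes that fell under erastin in siTAZ cells (TNC, too dim, is left out), laid out as the plot of the largest rises. In each panel the 3 siTAZ erastin points lie below the 3 siTAZ DMSO points; for CXCL8 the siNT erastin points do not lie below the siNT DMSO mean.

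Some lists leaned in 1 direction with hardly a call. Of 16 cytosolic heat shock genes CHORDC1 alone fell, but in 9 the erastin arrays lay wholly below the DMSO arrays, against 9.81% of all genes, and the median was -0.09. S phase genes showed the same in 18 of 39, with 0 called, a median of -0.09 and MCM10, a replication initiation factor, lowest at -0.53. NF-kB targets did so in 7 of 20, with a median of -0.12 and CXCL8 as the only call. The proliferation marker MKI67 was at 0.02 ± 0.06, and 41 genes of G2 and M phase had a median of 0.01 with 0 calls.

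In the other direction, 11 of 26 interferon-stimulated genes had erastin arrays wholly above the DMSO arrays, against 10.9% of all genes. None of the 26 passed the limma test, and the median was 0.10. Ribosomal protein genes showed the same separation in 13 of 32, with a median of 0.03, and those of oxidative phosphorylation in 8 of 33, with a median of 0.04, and 0 in either were called. Of the interferon-stimulated genes the highest, IFI27, had a change of 0.89 and an adjusted p of 0.135 in limma. Outside this list IFITM1, an interferon-induced membrane protein, rose by 0.71 ± 0.12, from 6.71, 6.91 and 6.99 to 7.41, 7.55 and 7.79; its probe set may also detect near-identical IFITM relatives, and its call was lost without DMSO array 1 or 2 or erastin array 2 or 3. MCM10 and IFI27 were named after their values were seen. The actin 3′ to 5′ difference given above moved with the same groups as these lists, and its part in them was not tested.

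In 14 of the 31 lists no member was called. Besides those above they were the lists for sterol synthesis, fatty acid synthesis, p53 targets, metallothioneins, ribosomal proteins, ribosome biogenesis, oxidative phosphorylation, and autophagy and lysosome. Their medians lay between -0.06, for fatty acid synthesis, and 0.05, for metallothioneins. ATF3 was the only call among 33 immediate early genes (median -0.04), and TNC among 35 of the extracellular matrix (median 0.02).

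Genes outside all lists made up 23 of the rises, from 0.25 to 0.72, and 8 of the falls. The DMSO means of 5 of these rises, FUT1 at 5.42, EVI2A at 5.45, NCALD at 4.53, SNTB1 at 4.17 and LRRC31 at 3.33, lay in that dim range, which limits the sizes read there. The call of EVI2A was lost in 5 of the 6 fits without a single array, and those of NCALD, SNTB1 and LRRC31 in all 6. FUT1, a fucosyltransferase that makes the H antigen, rose by 0.72 ± 0.11. Its signals went from 5.30, 5.46 and 5.50, in the range of the markers of other cell types, to 6.09, 6.03 and 6.29. Those groups stood apart, but the call was lost without DMSO array 1 or erastin array 3 (limma adjusted p up to 0.0726). Named after their values were seen, TSC22D3, the glucocorticoid-induced leucine zipper protein, rose by 0.54 ± 0.07 and PMAIP1, the BH3-only death protein NOXA, by 0.50 ± 0.10, the latter with a call lost without any 1 of the 6 arrays.

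The same contrast was computed in the siNT cells, which share no array with it. There 63 genes rose (0.527%) and 33 fell (0.276%). Of the genes that rose, 29 were common to both, 52.7% of the rises in silenced cells and 46.0% of those in control cells. Of the falls 4 were common, 33.3% and 12.1%. All 55 genes that rose in silenced cells, and 11 of the 12 that fell, had a change of the same sign in control cells. The exception was CXCL8, at 0.11 ± 0.07 there and with a difference between the responses of -0.52 (limma adjusted p = 0.282). Across all genes the changes of silenced and control cells correlated at r = 0.29 (Spearman rho 0.17), where genes are not independent replicates. The share of all genes with the same sign in both kinds of cells was not computed.

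The difference between the responses was tested as an interaction, and 0 of 11963 genes (0%) passed in limma, with 764 at an unadjusted p under 0.05. The lowest adjusted p, 0.0583, belonged to 3 genes, which are described for that reason. The 95% intervals of differences, here and below, are per gene and not adjusted for the number of genes tested. An interval clear of 0 is therefore not a call. The rise of INHBE was larger in silenced cells by 1.01 as measured (95% interval 0.70 to 1.33). Its siTAZ DMSO signals lie in the dim range and those of siNT cells do not, so the size of this difference is uncertain. In control cells the rise of INHBE was 1.55 ± 0.10, where signals of 6.29, 6.25 and 6.24 became 7.79, 7.58 and 8.06. That of SLC7A11 was larger by 0.61 (95% interval 0.42 to 0.80), against 0.87 ± 0.06 in control cells, where it went from 8.79, 8.87 and 8.88 to 9.76, 9.59 and 9.81. ASNS differed by 0.52 (0.37 to 0.68), against 0.81 ± 0.05 in control cells. Over 22 alternative settings their adjusted p ran from 0.00312 to 0.27, 0.00187 to 0.806 and 0.0011 to 0.27 in that order, and each stood under 0.05 in 5 settings that included all 12 arrays, INHBE in 1 more.

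These 3 genes started lower in silenced cells. With DMSO the siTAZ minus siNT difference, which uses the same siTAZ DMSO arrays, was -1.33 ± 0.10 for INHBE, -0.28 ± 0.06 for SLC7A11 and -0.99 ± 0.05 for ASNS. Under erastin it was -0.31 ± 0.10, 0.33 ± 0.06 and -0.47 ± 0.05. INHBE and ASNS thus ended below control cells and SLC7A11 above them, with limma adjusted p of 0.0364, 2.15e-05 and 0.00136 in the order INHBE, ASNS, SLC7A11. A lower start was not particular to these genes. Among other genes that rose, the difference with DMSO was -1.02 for CTH, -0.90 for CHAC1 and -0.83 for HMOX1, but 0.26 for ATF3.

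The erastin responses of other genes differed between the cells in either direction, and none of these differences passed. PCK2 rose more in silenced cells by 0.62 (0.33 to 0.91), STC2 by 0.48 (0.29 to 0.67), NUPR1 by 0.46 (0.15 to 0.78) and MTHFD2 by 0.44 (0.24 to 0.63), with limma adjusted p of 0.453, 0.282, 0.77 and 0.4. DDIT4 rose by 1.52 in each, with an interval of the difference from -0.28 to 0.28, although its level in silenced cells was lower throughout, at 9.32, 9.19 and 9.52 with erastin against 9.74, 9.77 and 9.75 in control cells with DMSO. CTH differed by 0.28 (-0.02 to 0.58). For CHAC1 and ATF3 it was -0.27 (-0.60 to 0.05) and -0.27 (-0.45 to -0.09), with adjusted p of 0.776 and 0.77 in limma. TXNIP, the thioredoxin-binding protein gene, rose in control cells by 0.48 ± 0.05 and was at 0.15 ± 0.05 in silenced cells. Its difference of -0.33 did not pass (adjusted p = 0.614).

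Among the list medians, that of the integrated stress response regulators was 0.49 in silenced and 0.34 in control cells, that of the transporters 0.22 and 0.10, that of the cytosolic synthetases 0.19 and 0.15, and that of the serine, asparagine, proline and folate enzymes 0.24 and 0.18. Rises were counted in 8 of 13 regulators and 5 of 13 of those enzymes in both kinds of cells, in 4 and 5 of 17 transporters, and in 7 and 4 of 16 synthetases. S phase genes had a median of -0.16 in control cells, where 3 fell, against -0.09 and 0 here. None of these differences between lists was tested.

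**Figure D5:**
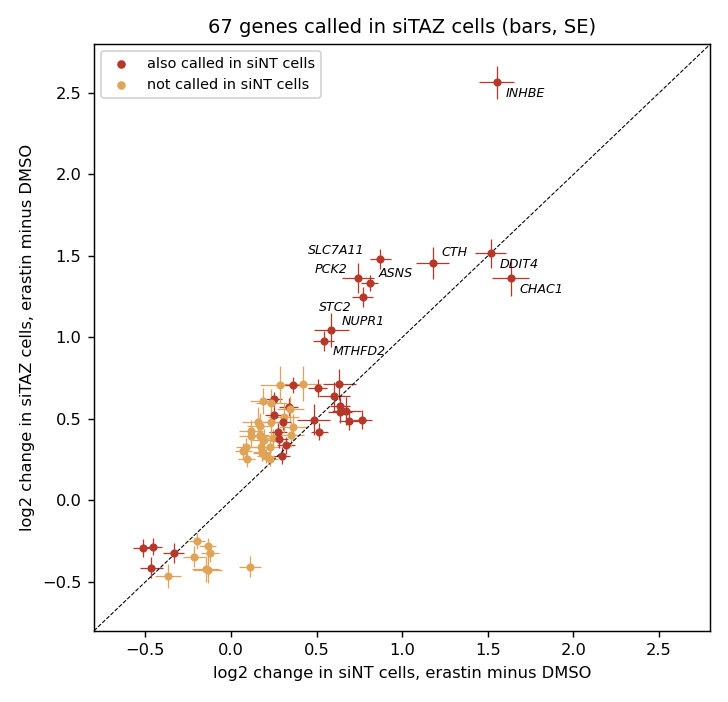
Log2 change under erastin in siTAZ cells (y axis) against that in siNT cells (x axis) for the 67 genes called in siTAZ cells, with standard errors as bars and equal changes on the dashed line. Red points were also called in siNT cells, orange were not; INHBE, SLC7A11 and ASNS lie above the line, DDIT4 on it and CHAC1 below it.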

How the data were processed

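RNA of 12 samples was hybridised to Affymetrix 3′ expression arrays. The authors deposited log2 signals per probe set, which the submitters' processing notes trace to RMA in Affymetrix Expression Console (version not given in the sources used here). Text with the series mentions a transformation against the siNT mean that the values do not show. RMA equalises the arrays' distributions, so a shift of all transcripts would not be seen. Signals ran from 2.02 to 14.4 and array medians from 6.48 to 6.54. Their number limits the precision.

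Of 22277 probe sets, those of controls (62), of several genes (1043) and of no listed gene (2108) were dropped, and the brightest probe set stood for each of 11963 genes. Groups came from the sample titles, and 0 columns were unmapped. All 12 arrays entered 1 limma fit (limma 3.58.1, R 4.3.3; 8 residual and 3.90 prior degrees of freedom) with a mean per group, tested on simulated data first. The siTAZ and siNT erastin contrasts and their interaction were tested. With 3 arrays against 3, an exact permutation test cannot give a p under 0.1, so none was made.

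The members and lists were chosen with earlier results of these data known. The text names 34 chosen genes, up to 20 rises and up to 20 falls, taken by size from called genes without overlap and with a brighter group mean at or above the 25th percentile (4.97), up to 5 called members per list, and others where stated. Same-numbered siTAZ arrays deviated together by correlations of -0.01, -0.18 and -0.13, so the numbers were not taken as pairs. Differently numbered siTAZ arrays gave -0.06 to 0.18, and with 3 arrays per group these values cannot settle whether the arrays were paired. Promoter sequences were RefSeq's for GRCh38.p14, matched by symbol. Alternatives covered scaling, dim genes, probe sets, variance model, array weights, arrays in the fit, a fold minimum, the actin covariate, a replicate block and leaving out arrays.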

Additional observations from a re-analysis of the deposited data

How the results depend on the processing

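All 67 called genes kept their sign under every alternative that tested them. Their groups do not overlap, so leaving out or weighting arrays, or changing the variance model, could not turn a sign. With each probe set alone only that of lowest p per gene was kept, which leaves out the opposite signs of DUSP7, DSCC1 and PLAUR above. Calls were kept in every alternative by 14 rises: ASNS, CARS1, CHAC1, CTH, DDIT3, DDIT4, INHBE, MTHFD2, NUPR1, PCK2, SLC1A4, SLC7A11, STC2 and TRIB3. The count of 67 (55 risen, 12 fallen) became 164 (101, 63) with the trend and robust settings, 166 (103, 63) with array weights and 26 (26, 0) with a minimum log2 change of 0.5. Without single arrays it was 30 to 41 (29 to 40 risen, 1 to 4 fallen). With only the groups compared and no block it was 45 (37, 8). The replicate block gave 34 (34, 0). The block together with only the groups compared, a setting chosen after seeing the data, gave 16 (16, 0). The labels do not state whether same-numbered arrays share a culture or day. Falls alone moved to 24 with a second quantile normalisation, 25 without dim genes, 6 with the mean of probe sets, 5 with each probe set alone and 1 with the actin covariate. For siNT cells the 96 calls became 63 with each probe set alone, 186 with trend and robust settings, 324 with array weights, 15 with only the groups compared, 28 with the minimum change, 39 with the block and 30 to 65 without single arrays. The interaction's 0 calls became 3 with median centring, a second quantile normalisation, without dim genes and with array weights (INHBE, SLC7A11 and ASNS each time), 10 with trend and robust settings, and 0 to 1 without single arrays, the 1 being INHBE without siNT erastin array 3. The causes of these moves were not tested. Signals near those of markers of other cell types limit the size of change that can be read for the rises of INHBE, CBS, FUT1, EVI2A, NCALD, SNTB1 and LRRC31 and the fall of TNC.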
